A study of Mus musculus with 2 samples.

Results

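The Siglec receptor family was followed through single cells of 4T1 mammary tumours. Its 7 members on the panel are Siglece, Cd33, Siglecf, Siglecg, Cd22, Siglech and Siglec1, taken by gene name. They are 7 of 468 genes counted under sample tags 2, 3 and 4. Under tag 1, where 396 genes were counted, 2 members were read, Cd33 and Cd22. The study asked how antibodies against Siglec-E, PD-1 or both change the cells of these tumours, which form when the mouse mammary carcinoma line 4T1 is placed in the fat pad of BALB/c mice.

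All mice were females aged 8 weeks at injection, all carried 4T1 tumours, and all received antibody from day 7, when tumours measured about 70 mm3. The anti-PD-1 pool is 1 sequencing cartridge that holds cells of mice given anti-PD-1 (clone RMP1-14) and of mice given anti-Siglec-E with anti-PD-1, under tags 3 and 4. The pool without anti-PD-1 is a second cartridge with cells of mice given rat IgG2a isotype control and of mice given anti-Siglec-E alone, under tags 1 and 2. Which of the arms of a pool sits under which tag is not labelled. Each value therefore belongs to a tag, none to a single arm, and neither Siglec-E blockade nor PD-1 blockade can be read on its own. Each arm had 6 mice, 2 tumours per arm were dissociated, and EPCAM-positive cells were mixed with EPCAM-negative cells at 1 to 4. Pool and cartridge cannot be told apart, and with 1 cartridge per pool there is no replicate and no test. A difference between pools is given as a level in every tag and, where it passes a stated size, as called.

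Siglecs are cell-surface lectins that bind sialic acid, the sugar that caps many glycans on host and tumour cells. Most carry tyrosine motifs in their cytoplasmic tail that recruit phosphatases and dampen activation, and some instead pair with an activating adaptor. In mice, Siglec-E and CD33 sit mainly on granulocytes and other myeloid cells, Siglec-F marks eosinophils and some tumour neutrophils, and Siglec-G and CD22 restrain B cell receptor signalling. Siglec-H marks plasmacytoid dendritic cells, and Siglec-1, also called sialoadhesin or CD169, is a macrophage adhesion receptor. The values here are transcripts, and say nothing of receptor protein or antibody binding.

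By GENCODE M21 annotation (GRCm38), Siglecf, Siglecg, Cd33 and Siglece lie in this order within 309 kb of chromosome 7. Siglecf spans chr7:43351341-43359531 on the plus strand, Siglecg chr7:43408204-43418358 on the plus strand, Cd33 chr7:43524216-43544428 on the minus strand and Siglece chr7:43651070-43660161 on the minus strand. Cd22 (chr7:30865402-30880342, minus strand) and Siglech (chr7:55768178-55778925, plus strand) lie elsewhere on that chromosome, and Siglec1 is on chromosome 2 (chr2:131069220-131086765, minus strand). RefSeq promoter sequence (GRCm38.p6) was matched for 6 of the 7 members. The bases just before the transcription start are shown for Siglece and Cd33, whose levels followed S100a8 among neutrophils, and for Siglecf, their neighbour whose level did not. Each is written 5′ to 3′ on the gene's own strand, and capitals mark GAGGAA, a core bound by the myeloid factor PU.1, and TTNCNNAA, a loose form of the C/EBP site, searched on both strands. For Cd33 the 57 bases of the window that fall in an annotated exon are not shown. The Cd33 window precedes a RefSeq start that lies inside the annotated gene span. The Siglece and Siglecf windows end at the annotated gene start, so the Cd33 window is not placed like theirs.
Siglece, chr7:43660162-43660411, minus strand: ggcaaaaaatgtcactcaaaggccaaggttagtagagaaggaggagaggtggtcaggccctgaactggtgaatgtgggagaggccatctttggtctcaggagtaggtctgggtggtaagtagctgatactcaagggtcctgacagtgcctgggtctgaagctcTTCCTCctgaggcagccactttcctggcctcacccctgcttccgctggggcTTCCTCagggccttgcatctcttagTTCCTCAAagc
Cd33, chr7:43533172-43533364, minus strand: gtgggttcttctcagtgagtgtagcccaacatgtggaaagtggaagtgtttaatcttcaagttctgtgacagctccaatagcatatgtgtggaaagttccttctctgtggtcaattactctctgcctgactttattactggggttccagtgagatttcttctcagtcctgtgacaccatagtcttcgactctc
Siglecf, chr7:43351091-43351340, plus strand: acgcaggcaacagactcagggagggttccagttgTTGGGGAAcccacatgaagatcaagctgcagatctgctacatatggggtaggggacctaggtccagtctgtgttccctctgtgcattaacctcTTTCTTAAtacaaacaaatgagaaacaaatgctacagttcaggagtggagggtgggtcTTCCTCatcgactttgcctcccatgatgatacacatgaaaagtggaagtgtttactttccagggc
The Siglece window of 250 bases held GAGGAA 3 times on the reverse strand and TTNCNNAA 1 time, the last match of each sharing bases 11 to 6 before the start. The Siglecf window held GAGGAA 1 time and TTNCNNAA 2 times, and the whole Cd33 window held GAGGAA 1 time, within its exon bases. Among 32851 promoter windows of the same length, 23.3% held GAGGAA and 36.8% held TTNCNNAA, so either match is common, and a match is a description of the letters, not a bound site.

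The tables held 12018 cells, with 1262 to 1463 median molecules per cell of the 396 genes counted in all tags. Cells were gated on marker molecules. The neutrophil gate took cells with at least 5% of molecules from S100a8, the alarmin subunit that dominates neutrophil RNA, and held 3851 and 677 cells in tags 3 and 4 (58.2% and 46.6%), against 1359 and 863 in tags 1 and 2 (55.9% and 57.0%). The 4 check markers of neutrophils (S100a9, Cxcr2, Cxcr1, Csf3r), of macrophages and of NK cells were higher in their gate in every tag that holds them. For B cells 3 of 4 were (Cd37 was not), and for dendritic cells 2 of 3 (Fscn1 was at 0 in tag 4). A mixed group, set aside from the gates, held 707 and 158 cells in tags 3 and 4, against 198 and 162 in tags 1 and 2. It included S100a8-rich cells with T cell marker molecules, chiefly Cd3d, 532 and 81 in tags 3 and 4, against 133 and 92 in tags 1 and 2, with a median depth of 3186 to 3963 molecules. The cartridges shared 2 to 16 cell indices per pair of tags, and tags of 1 cartridge shared 0. Levels are counts of molecules per 1000000 of the shared genes (CPM), with exact Poisson 95% intervals that cover counting error only. Each gene has its own primers, so levels are compared between cells and not between genes.

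Siglece, which encodes the receptor blocked in the study, was highest in neutrophils in each tag that measured it. Its neutrophil level was 594 CPM (575 to 614) in tag 3 and 614 CPM (569 to 661) in tag 4, against 420 CPM (386 to 457) in tag 2. Both tags of the anti-PD-1 pool lay above tag 2, and the intervals did not overlap. Neutrophils held 63.5% and 63.2% of all Siglece molecules in tags 3 and 4, against 58.8% in tag 2, and the mixed group held another 27.4% and 26.6%, against 28.2%. The S100a8-rich mixed cells with T cell marker molecules had 671 and 600 CPM of Siglece in tags 3 and 4, against 591 CPM in tag 2. In tag 2 this lay above the neutrophil level, and among these cells tag 2 was close to tag 4.

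A Siglece molecule was seen in 42.9% and 43.4% of neutrophils in tags 3 and 4, against 33.1% in tag 2. Thinned to 500 molecules per cell, the shares were 22.2% and 21.7%, against 17.4%, in the same order. The tumour gate was set on Lgals1 and low S100a8, and some of its cells carried markers of other cell types, as described below. Background and other cell types can thus not be told apart in it. In this gate 2.57% and 1.08% of cells in tags 3 and 4 had a Siglece molecule, against 4.63% in tag 2. Thinned, those shares were 1.39% and 0.562%, against 0.980%. Tumour-gate cells were deeper, with a median of 2438 and 2796 molecules in tags 3 and 4, against 3129.5 in tag 2, where neutrophils had 1243 and 1229, against 1196.

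Monocytes held less Siglece. Their level was 181 CPM (139 to 231) in tag 3 and 114 CPM (62.2 to 191) in tag 4, against 130 CPM (72.7 to 214) in tag 2, so the pools overlapped. Between pools calling a gene took a gap of 1.5-fold between the closest tags and 30 molecules in all; in monocytes 4.92% of 264 genes were called higher over tag 2 and 11.4% lower, and Siglece was neither. Neutrophils stood above monocytes 3.29-fold and 5.39-fold in tags 3 and 4, and 3.24-fold in tag 2. Between gates a gene was called where every tag with 30 cells in both gates passed 2-fold in 1 direction. By this rule 9.01% of 344 genes were called higher in neutrophils than in monocytes and 44.8% lower. Siglece, Cd33 and Siglecf were higher while Siglecg was lower. The Siglecg call rested on 13 and 5 monocyte molecules in tags 3 and 4, against 4 in tag 2, with intervals apart in tag 3 alone. Its mean ratio of neutrophils to monocytes was 0.284, beside 0.360 for the median gene.

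Macrophages gave an uneven Siglece level. It was 62.5 CPM (44.6 to 85.1) in tag 3, against 222 CPM (151 to 315) in tag 2, while the 21 macrophages of tag 4 held 8 molecules. In tag 2, 1 cell held 67.7% of the 31 macrophage molecules. Siglece was therefore not called between neutrophils and macrophages, 9.51-fold in tag 3 and 1.89-fold in tag 2, where 14.3% of genes were called higher in neutrophils and 51.6% lower.

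Lymphoid and dendritic gates held little Siglece. CD8 T cells had 91.8 CPM (52.5 to 149) in tag 3 and 3 molecules in tag 4, and CD4 T cells had 59.3 CPM (25.6 to 117) and 2 molecules. Siglece and Cd33 were both called higher in neutrophils than in either T cell gate, as were 19.3% of genes against CD8 T cells (52.2% lower) and 18.0% against CD4 T cells (58.7% lower). Dendritic cells of tag 3 had 72.8 CPM (29.3 to 150), and 21.0% of genes, Siglece and Cd33 among them, were called higher in neutrophils and 57.7% lower. In tags 3 and 4 the gates under neutrophils overlapped with their neighbours in the order of Siglece levels, and in tag 2 macrophages overlapped with monocytes.

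Cd33, which gives its name to the CD33-related branch of the family, was read in all 4 tags and was also highest in neutrophils. There it measured 1407 CPM (1378 to 1437) and 1399 CPM (1331 to 1469) in tags 3 and 4, against 1363 CPM (1314 to 1413) and 1312 CPM (1251 to 1375) in tags 1 and 2. The tags of the anti-PD-1 pool lay above the others, but the nearest were 1.03-fold apart and their intervals overlapped. Tag 2 lay at 0.962 times tag 1, although tag 1 was counted against another target set. Cd33 molecules were found in 66.8% and 66.3% of neutrophils in tags 3 and 4, against 62.0% and 61.5% in tags 1 and 2, and thinned in 43.9% and 43.3%, against 40.5% and 39.6%. Tumour-gate cells with a molecule were 8.04% and 7.03%, against 15.3% and 12.04%.

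In monocytes Cd33 had 470 and 366 CPM in tags 3 and 4, against 418 and 268 CPM in tags 1 and 2. The pools overlapped, and 0.905% of 221 genes were called higher and 2.71% lower. Neutrophils exceeded monocytes 2.99-fold and 3.82-fold in tags 3 and 4, and 3.26-fold and 4.89-fold in tags 1 and 2, where 6.71% of 298 genes were called higher and 41.6% lower. Macrophages held 289 CPM in tag 3, against 228 and 136 CPM in tags 1 and 2, and were below neutrophils 4.87-fold in tag 3, and 5.99-fold and 9.64-fold in tags 1 and 2 (12.4% of genes called higher in neutrophils, 47.1% lower). In tag 4 the T cells that met neither the CD4 nor the CD8 gate held 380 CPM (229 to 594), an interval that overlapped with that of monocytes.

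Tumour-gate cells held little Cd33, 42.7 and 39.9 CPM in tags 3 and 4, against 57.2 and 43.3 CPM in tags 1 and 2. Between pools 8.42% of 273 tumour-gate genes were called higher and 6.96% lower, and Cd33 was neither. Neutrophils exceeded tumour cells 32.9-fold and 35.1-fold in tags 3 and 4, and 23.8-fold and 30.3-fold in tags 1 and 2. There 20.4% of 318 genes were called higher in neutrophils and 38.7% lower. Siglece and Siglecf were called too, among 23.0% of 369 genes higher in neutrophils of tags 3, 4 and 2 and 43.1% lower.

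Siglecf, a marker of mouse eosinophils, was sparse, and most of its molecules lay in neutrophils, the largest gate. There Siglecf measured 81.1 CPM (74.1 to 88.6) and 80.9 CPM (65.2 to 99.3) in tags 3 and 4, against 155 CPM (134 to 178) in tag 2. Tag 2 was the highest, with an interval apart from the other two. A molecule was seen in 8.67% and 7.68% of neutrophils in tags 3 and 4, against 10.54% in tag 2, and thinned in 4.31% and 3.81%, against 6.51%. In tumour-gate cells it was seen in 1.29% and 2.16%, against 0 of 108 cells, where the upper 95% limit of its level was 8.86 CPM.

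Monocytes had fewer Siglecf molecules, 11.5 CPM (3.13 to 29.4) and 8.13 CPM (0.206 to 45.3) in tags 3 and 4, against 8.66 CPM (0.219 to 48.2) in tag 2, intervals below those of neutrophils in each tag. CD4 T cells had 59.3 CPM (25.6 to 117) in tag 3, which overlapped with neutrophils, and 0 molecules in 58 cells of tag 4. Ungated cells, which met no gate, held 18.8% and 20.6% of Siglecf molecules in tags 3 and 4, against 11.2% in tag 2. They held 148 per 949850 shared molecules in tag 3 and 32 per 209175 in tag 4, against 30 per 218814 in tag 2. Neutrophils held 498 per 6139792 and 92 per 1136630, against 206 per 1329586. By level, ungated cells thus stood above neutrophils in tags 3 and 4 and below them in tag 2. An eosinophil gate could not be made, since 1 of its genes is in the tables where 2 were needed, so eosinophils among the Siglecf-positive cells were not separated.

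**Figure D1:**
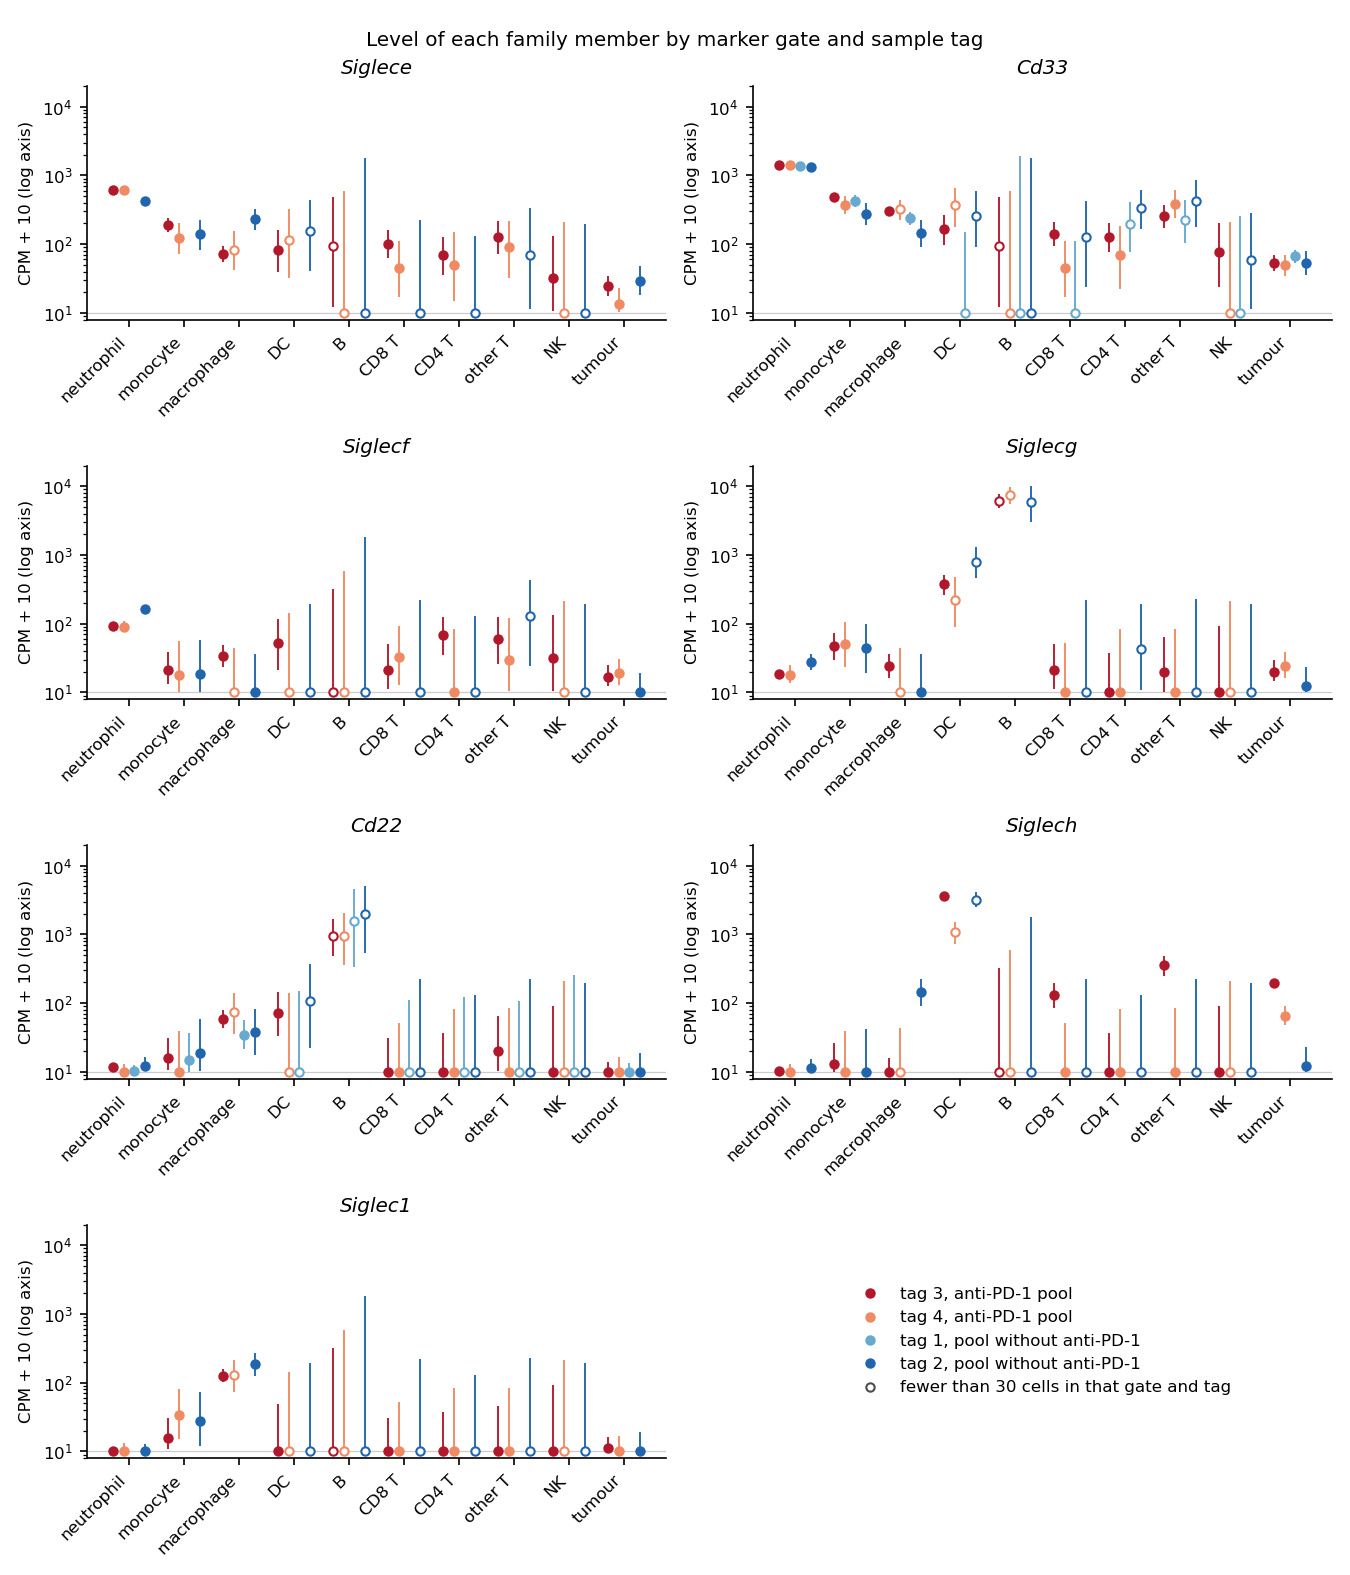
Level of each member by marker gate, as CPM plus 10 on a log axis; points are tags, ordered tag 3, tag 4, tag 1, tag 2 within a gate, bars are exact Poisson 95% intervals, and open points are gates with fewer than 30 cells. Siglece and Cd33 are highest in neutrophils in every tag, Siglecg and Cd22 in the few B cells, Siglech in dendritic cells and Siglec1 in macrophages.

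Siglecg, an inhibitor of B cell receptor signalling, had its highest level in the few B cells. The B cell gate held 23 and 10 cells in tags 3 and 4, against 4 in tag 2, and 17 and 8 of them had Siglecg, against 3. Those cells carried 71 and 47 molecules, against 12, or 21.5% and 48.0% of all Siglecg molecules in tags 3 and 4, against 12.5% in tag 2. Most Siglecg molecules thus lay outside the B cell gate. The mixed group held 28.7% and 16.3% of them, against 36.5%, and neutrophils, with far more cells, 16.3% and 9.18%, against 24.0%. Dendritic cells had the next level, with 35 molecules in 52 cells of tag 3 (364 CPM, 254 to 506) and 6 in 13 cells of tag 4, against 16 in 10 cells of tag 2. Monocytes had 37.3 and 40.7 CPM in tags 3 and 4, against 34.6 CPM in tag 2. Neutrophils had less, 8.80 and 7.92 CPM, against 17.3 CPM, on 54 and 9 molecules, against 23.

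Cd22, the B cell co-receptor that damps antigen receptor signalling, also peaked in B cells. It was found in 8 of 23 and 2 of 10 B cells in tags 3 and 4, against 2 of 2 and 3 of 4 in tags 1 and 2. The macrophage gate held a low Cd22 signal in every tag, 31 molecules in tag 3 (48.4 CPM, 32.9 to 68.7) and 7 in tag 4, against 9 and 4 in tags 1 and 2. It lay in 14.3% and 23.8% of macrophages in tags 3 and 4, against 10.3% and 6.25%. Neutrophils, many times more numerous, had 10 and 0 molecules in tags 3 and 4, against 1 and 3. The tumour gate had 0 in all 4 tags. Its upper 95% limits were 4.15 and 6.68 CPM in tags 3 and 4, against 3.46 and 8.86 CPM in tags 1 and 2. Cd22 and Siglec1 were both called lower in neutrophils than in macrophages. So were 51.6% of 364 genes over tags 3 and 2, and 47.1% of 314 over tags 3, 1 and 2, where Cd22 was also read.

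Siglech lay mostly in 38 cells that had at least 2 of its molecules, 28 and 5 in tags 3 and 4, against 5 in tag 2. They held 881 of its 892 molecules, and 31 of them had at least 10. Counts per cell ran to 62 in tag 3 and 31 in tag 4, against 38 in tag 2. Of genes used by plasmacytoid dendritic cells, the transcription factor Irf8 was present in 36 of the 38, Flt3 in 29, the chemokine receptor Ccr9 in 28 and Tcf4, a core factor of that lineage, in 9. Irf7, which drives interferon transcription, was present in 34, but also in 64.1% and 67.7% of other cells in tags 3 and 4, against 59.6% in tag 2. Outside the Siglech cells Irf8 was found in 13.2% and 22.0% of cells in tags 3 and 4, against 15.9% in tag 2. Flt3 was found there in 1.26% and 1.31%, against 1.06%, and Tcf4 in 1.14% and 2.00%, against 1.19%. Ccr9 was found in 0.0455% of other cells in tag 3 and none in tag 4, against 0.0662% in tag 2. Among the Siglech cells Tcf4 was in 0 of 5 in tag 2, and Cd3e, a T cell gene, in 7 of the 38. Irf8 and Flt3 were not on the marker list set for plasmacytoid dendritic cells, and the dendritic cell gate itself required Flt3. The minimum of 2 molecules was chosen after the values were seen, and the cells are described without a test.

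The gates split these Siglech cells. They comprised 17 dendritic cells, 9 cells of the tumour gate, 8 mixed cells, 2 CD8 T cells, 1 other T cell and 1 macrophage, while Epcam was found in 6 of the 38. The tumour gate therefore showed Siglech at 186 and 56.2 CPM in tags 3 and 4, against 2.40 CPM in tag 2, from 8 and 1 such cells, against 0. It was called higher there, among 15.2% of 310 genes called higher and 12.9% lower. Dendritic cells had 3642 CPM in tag 3 and 30 molecules in 1 of 13 cells in tag 4, against 65 molecules in 3 of 10 cells in tag 2. In neutrophils Siglech had 3 and 0 molecules in tags 3 and 4, against 2.

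Siglec1 was the macrophage member. Its macrophage level was 117 CPM (92.1 to 147) in tag 3, against 179 CPM (116 to 264) in tag 2, from 75 and 25 molecules, and the 21 macrophages of tag 4 held 13. It was seen in 30.4% of macrophages in tag 3 and 28.1% in tag 2; thinned to 500 molecules, in 6.48% and 16.1%. Neutrophils held 0 molecules in tags 3, 4 and 2, with upper 95% limits of 0.601 and 3.25 CPM in tags 3 and 4, against 2.77 CPM in tag 2. Monocytes held 2 and 3 molecules in tags 3 and 4, against 2 in tag 2.

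Neutrophils were next ordered by the share of their molecules that came from S100a8, in 6 bins, and levels in the bins were taken per 1000000 molecules other than S100a8. Siglece was higher in S100a8-rich neutrophils in every tag. From the bin of 5 to 10% to the bin of 50% and over, its level in tag 3 was 456, 585, 690, 901, 1047 and 1909. In tag 4 it was 374, 588, 655, 946, 1448 and 1850, and in tag 2 it was 335, 477, 439, 562, 937 and 1366. Each bin lay above the one before, save the bin of 20 to 30% in tag 2, whose interval overlapped with its neighbour's.

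The top bin exceeded the bottom bin in Siglece by 2.07 and 2.31 on the log2 scale in tags 3 and 4, and by 2.03 in tag 2, a mean of 4.38-fold. That placed Siglece at rank 25 of 262 genes, whose median was 0.19. By the 2-fold rule 17.6% of the genes were called higher in S100a8-rich neutrophils and 9.16% lower, and Siglece was called higher. Per 1000000 of all shared molecules, with S100a8 kept in the total, the mean difference was 0.91 and Siglece was no longer called. Thinned to 500 molecules, S100a8 among them, Siglece was found in 27.5% and 25.8% of top-bin cells in tags 3 and 4, against 16.7% and 16.5% of bottom-bin cells; in tag 2 the shares were 21.3% and 15.4%.

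Cd33 followed the same course. From low to high S100a8 it was 1034, 1156, 1780, 2468, 3357 and 3827 in tag 3 and 994, 1443, 1355, 2393, 3150 and 4049 in tag 4. In tag 1 it was 814, 1163, 1807, 2560, 3084 and 4033, and in tag 2 it was 877, 1100, 1724, 2146, 3140 and 4159. In tags 3, 1 and 2 each bin lay above the one before, and tag 4 had a step down at 20 to 30%.

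Over the 4 tags the Cd33 top bin exceeded the bottom bin 4.34-fold, rank 24 of 228 genes, of which 17.5% were called higher and 7.02% lower. Thinned, Cd33 was found in 51.9% and 50.0% of top-bin cells in tags 3 and 4, against 34.5% and 36.7% of bottom-bin cells, and in 56.9% and 57.4% against 26.1% and 25.2% in tags 1 and 2. With S100a8 kept in the total the mean difference was 0.90 on the log2 scale. With cells ordered by S100a9, the partner of S100a8 in calprotectin, it was 0.77, and Cd33 was called in neither case. Siglece under the S100a9 order differed by 1.49 and was still called.

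Of the 4 neutrophil check markers, 2 were called higher in the top bin over the tags that hold them, S100a9 at 3.51-fold and Cxcr2, a receptor of neutrophil chemokines, at 3.72-fold. The other two were not called, Csf3r at 1.86-fold and Cxcr1, a related chemokine receptor, at 0.984-fold. Median molecules per cell other than S100a8 were 1002 and 1014 in the top bin of tags 3 and 4, against 769 and 732 in the bottom bin, and 1056 and 1063, against 815 and 842.5, in tags 1 and 2. The part of depth in these differences was not tested.

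Siglecf did not follow. From low to high S100a8 it was 174, 115, 140, 133, 104 and 114 in tag 3 and 222, 91.4, 138, 48.2, 169 and 158 in tag 4. In tag 2 it was 264, 412, 97.6, 194.4, 25.3 and 124, on 2 to 108 molecules per bin. The bottom bin was the highest in tags 3 and 4, and the bin of 10 to 20% in tag 2.

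The Siglecf top bin differed from the bottom bin by -0.61 and -0.50 on the log2 scale in tags 3 and 4 and by -1.09 in tag 2, short of the 2-fold rule in tags 3 and 4. With S100a9 as the order the mean turned to 1.98. With S100a8 kept in the total, which lowers every other gene where S100a8 is high, it was -1.96 and called lower. The direction of Siglecf over alarmin level thus depended on whether cells were ordered by S100a8 or S100a9.

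Some cells under 5% S100a8 had at least 10 molecules of Csf3r, the receptor of the neutrophil growth factor G-CSF, 428 and 76 cells in tags 3 and 4, against 114 in tag 2. In this set, chosen after the data were seen, Siglecf was 321 and 298.9 per 1000000 molecules other than S100a8 in tags 3 and 4, against 201 in tag 2, and above the bottom bin in tags 3 and 4. In the same cells Siglece was 652 and 734, against 402, and Cd33 was 864 and 856, against 549. Siglece was above its level in the lowest S100a8 bin in all 3 tags, and Cd33 below its own. That bin held 47 Siglece molecules in tag 2, and 19 of Siglecf and 85 of Cd33 in tag 4. The intervals overlapped in each of these cases. The bins had no Csf3r minimum, so the sets differ in Csf3r selection as well as in S100a8.

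**Figure D2:**
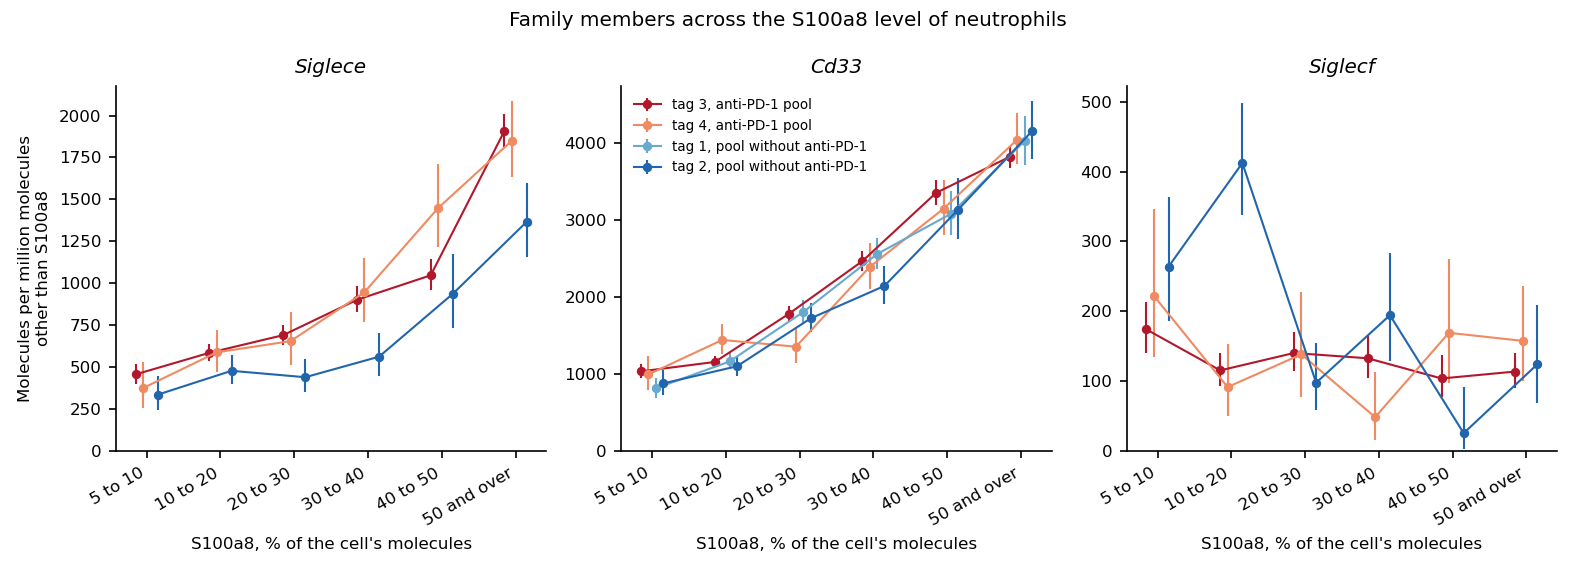
Siglece, Cd33 and Siglecf in neutrophils binned by the percent of molecules from S100a8; the vertical axis is molecules per 1000000 molecules other than S100a8, lines are tags and bars are exact Poisson 95% intervals. Siglece and Cd33 are higher at the right in every tag, and Siglecf is not. For Siglece, tags 3 and 4 lie above tag 2 in each bin, with bars that overlap in some bins.

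In neutrophils the pools were compared as the mean of tags 3 and 4 over tag 2, or over tags 1 and 2 for Cd33. Over tag 2, 6.15% of 325 genes were called higher and 17.8% lower, 20 and 58 genes, and the median gene lay at -0.29 on the log2 scale. With median-ratio scaling the split was 32 higher and 30 lower. Over tags 1 and 2, 4.26% of 282 genes were called higher and 12.1% lower, with a median of -0.26. The pools differed in many genes, and each member is also given relative to the median gene.

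Siglece was higher by 0.52 on the log2 scale, or by 0.81 relative to the median gene. Its nearest tags were 1.41-fold apart, short of the 1.5-fold rule, so it was not called. Per molecule other than S100a8 the difference was 0.68, and with median-ratio scaling it was 0.82, and both passed the rule. With the S100a8-rich mixed cells put back it was 0.42 and not called. Tags 3 and 4, of 1 cartridge, were 1.03-fold apart. Tag 1 did not measure Siglece, so its pool rests on tag 2 alone.

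Neutrophils of the anti-PD-1 pool were also richer in S100a8, which took 37.0% and 39.2% of their molecules in tags 3 and 4, against 31.1% and 31.0% in tags 1 and 2. The bin of 50% and over held 17.0% and 19.1% of neutrophils, against 9.64% and 11.01%. Within bins, a comparison added after the data were seen, tags 3 and 4 both lay above tag 2 for Siglece in 6 of 6 bins. The nearest tags were 1.116, 1.22, 1.49, 1.60, 1.118 and 1.35-fold apart from low to high S100a8. Of 325 genes, 2.77% were higher in all bins in this way and 12.3% lower. Siglece counts per bin were small, 47 to 154 molecules in tag 2 and 32 to 270 in tag 4. The Poisson intervals of tags 3 and 4 both lay apart from that of tag 2 at 30 to 40% and at 50% and over. In each other bin the interval of tag 3 or tag 4 overlapped with that of tag 2. The mean over bins, each with equal weight, was 931 and 977 in tags 3 and 4, against 686 in tag 2, higher by 0.48 on the log2 scale, or by 0.63 relative to the median gene.

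Cd33 was higher by 0.07 on the log2 scale over tags 1 and 2, or by 0.33 relative to the median gene, and was not called. With the S100a8-rich cells with T cell marker molecules put back it was -0.0270. Within bins, tags 3 and 4 were both above tags 1 and 2 in 2 of 6 bins and both below in 0. Of 282 genes, 1.77% were higher in all 6 bins and 6.74% lower.

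Siglecf differed by -0.94 on the log2 scale, or -0.65 relative to the median gene, with nearest tags 1.91-fold apart, and was called lower. This rested on 1 bin of 1 tag. In tag 2, neutrophils with 10 to 20% S100a8 held 108 of the 206 molecules, in 16.9% of 255 cells, with at most 8.33% of them in 1 cell. Without that bin the levels were 77.9 and 81.6 CPM in tags 3 and 4, against 95.9 CPM in tag 2, the difference was -0.27 and Siglecf was not called. Within bins, tags 3 and 4 lay below tag 2 in 3 bins and above it in 2. Siglecg was also called lower, at -1.05 on the log2 scale, on 86 molecules over the 3 tags and with intervals that overlapped. Siglech, Siglec1 and Cd22 had fewer than 30 neutrophil molecules and were not compared.

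**Figure D3:**
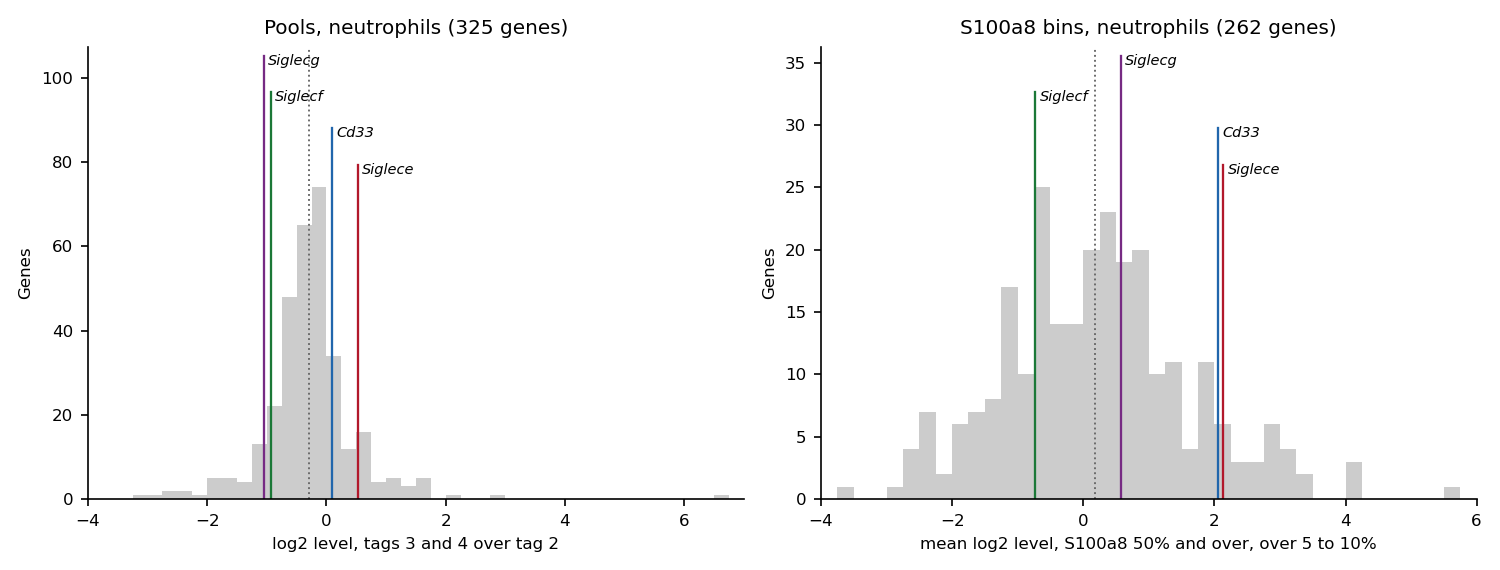
Distribution over all measured genes of the log2 level of tags 3 and 4 over tag 2 in neutrophils (left) and of the mean log2 level of neutrophils with 50% S100a8 and over, over those with 5 to 10% (right); lines mark members and the dotted line is the median gene. On the left Siglece lies right of the median and Siglecf and Siglecg left of it, and on the right Siglece and Cd33 lie together in the upper tail.

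In single neutrophils of all S100a8 levels, thinned to 500 molecules, Siglece was found more often in cells that also held Cd33. The shares were 27.3% with Cd33 and 18.3% without it in tag 3, 24.5% and 19.6% in tag 4, and 19.6% and 16.1% in tag 2. The order was the same in the 3 tags, and the intervals were apart in tag 3 and overlapped in tags 4 and 2. Siglece was also found more often beside Siglecf, in 32.7% of cells with it and 21.8% without in tag 3, 41.7% and 20.96% in tag 4, and 26.4% and 16.8% in tag 2. Those shares rest on 156 and 24 cells with Siglecf in tags 3 and 4, and on 53 in tag 2, and the intervals were apart in tag 3 alone. Cd33 had no such order beside Siglecf, at 39.7% and 44.0% in tag 3, 41.7% and 43.4% in tag 4, and 41.5% and 39.4% in tag 2. S100a8 level was not held fixed in these shares, and Siglece and Cd33 were both higher in S100a8-rich neutrophils. The part of S100a8 level in the shares was not tested.

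**Figure D4:**
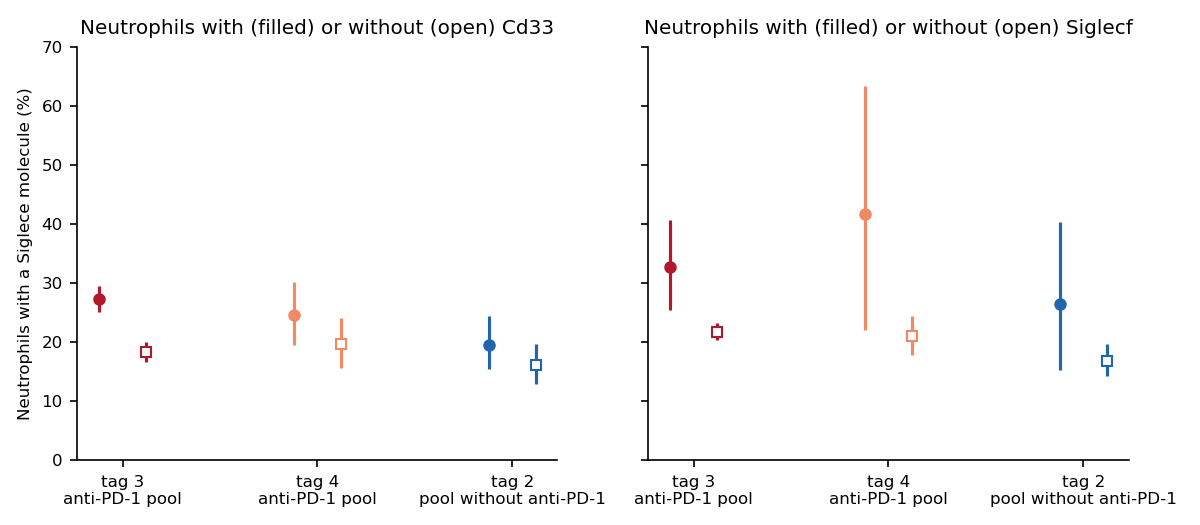
Percent of neutrophils, each thinned to 500 molecules, with a Siglece molecule among cells with (filled) or without (open) a Cd33 or Siglecf molecule, by tag; bars are exact Clopper-Pearson 95% intervals. The filled point is above the open one in each of the 3 tags for both partners. Neutrophils of all S100a8 levels are included, and S100a8 level is not held fixed.

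Over the 9 profiles of neutrophils, monocytes and tumour cells in tags 3, 4 and 2, the 5 genes most like Siglece among 439 were Tlr1, Cd33, Slfn1, Tnfsf14 and C5ar1, with Pearson's r of 0.976 to 0.989. Those most like Cd33 were Slfn4, Slfn1, Siglece, Clec4d and Tnfsf14, at 0.981 to 0.992. Those most like Siglecf were Nod1, Cxcr1, Slc2a3, Ccr3 and S100a8, at 0.956 to 0.978; Ccr3 is an eosinophil chemokine receptor and Cxcr1 a neutrophil one. Havcr2, which encodes TIM-3, was most like Siglecg at 0.931. Iglc3, an antibody light chain gene, and Ccr9 were most like Siglech at 0.983 and 0.960. The dendritic cell gate is not among these profiles. Of the 203 Siglech molecules they hold, 165 and 31 lay in the tumour gates of tags 3 and 4, so the Siglech values rest on few cells. Siglec1 and Cd22 had 8 and 16 molecules in these profiles, too few to rank. The profiles share libraries and differ mainly by gate, so these values are descriptions.

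Of 38 genes listed as signalling partners of the family or as other receptors that work through the same motifs and adaptors, 17 were on the panel, among them Lyn, the kinase that phosphorylates Siglec tails, Fcer1g, an activating adaptor, and the receptors Lilrb4a, Cd300a and Clec4d. In neutrophils 12 had enough molecules over the 4 tags; 0 were called higher in tags 3 and 4 than in tags 1 and 2, and 1 lower, Cd5, at 5.86 and 4.40 CPM, against 9.29 and 9.78 CPM. Over all genes 4.26% were called higher and 12.1% lower, so the list's calls were near this background. Cd5 is a regulator of lymphocyte receptor signalling. The list's median was -0.21 on the log2 scale, beside -0.26 for all genes. Lilrb4a, an inhibitory receptor of myeloid cells, had 16026 and 15411 CPM in tags 3 and 4, against 13635 and 13667 CPM, and was not called. Lyn had 1640 and 1624 CPM in tags 3 and 4, against 1787 and 1783 CPM, and was not called. Across S100a8 bins 10 were measured over the 4 tags, 1 was called higher, Lyn, by 1.38 on the log2 scale, and 0 lower, with a median of -0.20 beside 0.27 for all genes, of which 17.5% were called higher and 7.02% lower. The PD-L1 gene Cd274 differed by -1.31 without passing 2-fold in every tag.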

How the data were processed

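The authors' deposited tables give counts of error-corrected molecules by cell and gene, 1 table for each sample tag. Per the file headers they came from version 1.12.1 of BD's Rhapsody pipeline for targeted panels, and the target reference of tag 1 differed from that of tags 2 to 4. The submitters' processing notes list Seurat 3.2.0; no aligner or genome build is given in the sources used here.

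Computed here (Python 3.11.15, pandas 2.3.3, numpy 2.4.6, scipy 1.17.1, matplotlib 3.10.9): cells were gated on raw marker molecules, and cells that met several gates, or another gate with at least 10% S100a8, were set aside as mixed. Tumour-gate cells had at least 1% Lgals1 and under 5% S100a8, and neutrophils under 1% Lgals1. Macrophages needed 3 C1qa or C1qb molecules. Molecules were summed by tag and gate, and cells were not treated as replicates. No doublet caller was run; as an alternative the deepest 5% of cells per tag were removed. A tag at 0 was set to 3 counts in ratios. Shares carry exact Clopper-Pearson 95% intervals. Thinning used 1 seed and left out cells under 500 molecules, 8.55% and 8.12% of cells in tags 3 and 4, against 6.30% and 6.73% in tags 1 and 2. Likeness was Pearson's r of log2(CPM + 10). Calls between pools were tested on simulated Poisson counts, intervals on simulated draws, and thinning on the neutrophils of tag 2. Calls between gates and between bins were not tested in this way. The members, lists, gates and bins were chosen with earlier results of these data known. The 5 genes most like a member were named by rule, and genes of the partner list by their calls and, for Lyn, Lilrb4a and Cd274, after their values were seen.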

Additional observations from a re-analysis of the deposited data

How the results depend on the processing

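No paired analysis was possible because each pool is 1 cartridge and no test was run. Of 202 comparisons under alternatives, 180 stayed the same. For a member's difference this meant the same direction and side of the rule. For a count of genes it meant staying within 1.5-fold, and for a share of cells the same direction. Of 99 neutrophil levels of Siglece, Siglecf and Cd33, 31 moved outside the interval of the reported level. The alternatives gave 0.838 to 1.64 times the reported level. The pool difference of Siglece in neutrophils lay between 0.42 and 0.82 on the log2 scale over 14 alternatives, and passed the 1.5-fold rule with S100a8 out of the total (0.68) and with median-ratio scaling (0.82). Siglecf was not called without the bin of 10 to 20% (-0.27). Cd33 turned to -0.0270 with the cells with T cell markers returned, and in monocytes to -0.000138 without tag 2. Over S100a8 bins, S100a8 kept in the total gave 0.91 for Siglece, 0.90 for Cd33 and -1.96 for Siglecf, and the S100a9 order gave 0.77 for Cd33 and 1.98 for Siglecf. Against 20 genes higher over tag 2, there were 11 without the deepest 5% of cells, 7 at 2-fold, 32 with median-ratio scaling and 13 at a minimum of 100 molecules. Against 58 lower, there were 21 at 2-fold and 30 with that scaling. Over tags 1 and 2, against 12 higher, there were 3 without the deepest cells, 5 at 2-fold and 7 with cells returned; against 34 lower, 15 at 2-fold, 22 with scaling and 52 without tag 3. The cause was not tested. The settings that return cells, keep S100a8 in the total or leave out a bin were chosen after seeing the data. With the Siglec genes unread in tag 1, leaving out tag 2 gives no value for them. Few molecules limit Siglecg, Siglech, Siglec1 and Cd22.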
